A study of Mus musculus with 5 samples.

Results

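The mRNAs of 10 genes that shape mitochondria were followed in brown adipose tissue (BAT) of cold-exposed mice with and without ATF4 in thermogenic adipocytes. They were taken by name: Opa1, Mfn1 and Mfn2 for fusion, Dnm1l, Mff, Fis1, Mief1 and Mief2 for fission, and Immt and Chchd3 for the cristae. They are 10 of 52022 annotated genes, and all 10 were among the 16450 genes with enough counts to be tested. The ATF4 BKO mice carried floxed Atf4 alleles (ATF4 fl/fl) and a Cre recombinase under the Ucp1 promoter, so cells of BAT that do not express Ucp1 kept the gene. The WT mice carried the same floxed alleles without Cre, which means that the Cre transgene and the deletion cannot be told apart. Every mouse was of the C57Bl/6J background, described as male, 10 to 12 weeks old and fed ad libitum, and was held for 7 days at 30 °C before 3 days at 4 °C. RNA of 3 ATF4 BKO and 2 WT mice gave 1 library each, and libraries from mice kept warm were not analysed here.

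Mitochondria divide and join continuously. In fusion, the mitofusins MFN1 and MFN2 tether and merge the outer membranes, and the dynamin-like GTPase OPA1 merges the inner membranes and also keeps cristae junctions narrow. In fission, the GTPase DRP1, encoded by Dnm1l, is recruited from the cytosol by MFF, FIS1 and the MIEF proteins and constricts the organelle. The MICOS complex, built around MIC60 (Immt) and MIC19 (Chchd3), holds the necks of the cristae. Brown adipocytes are packed with cristae-rich mitochondria, and noradrenergic stimulation is known to drive DRP1-dependent fission in them. Several of these proteins are controlled by phosphorylation or proteolysis, which mRNA levels do not show.

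Alternative exons decide which OPA1 and DRP1 proteins a cell makes, and a late splice site makes a Mief1 transcript annotated for nonsense-mediated decay, so the stretches that separate these transcripts are shown here with the transcript shares to which they belong given further on. All come from the GENCODE M21 transcripts (GRCm38), 5′ to 3′. Capitals mark the alternative stretch, and the lower-case bases are 15 on either side. For Opa1, the plus strand of chromosome 16 holds a coding exon of 54 bases (18 codons) at chr16:29588823-29588876 in Opa1-201 and a coding exon of 111 bases (37 codons) at chr16:29597586-29597696 in Opa1-207. The most abundant transcript, Opa1-206, has neither.
Opa1-201 with its exon: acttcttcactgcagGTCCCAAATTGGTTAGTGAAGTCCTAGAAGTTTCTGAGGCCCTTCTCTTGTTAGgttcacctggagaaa
Opa1-206 at the same junction: acttcttcactgcaggttcacctggagaaa
Opa1-207 with its exon: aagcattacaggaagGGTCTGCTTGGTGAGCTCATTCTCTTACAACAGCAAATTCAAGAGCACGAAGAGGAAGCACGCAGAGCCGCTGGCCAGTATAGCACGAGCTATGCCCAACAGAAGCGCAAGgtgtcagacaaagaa
Opa1-206 at the same junction: aagcattacaggaaggtgtcagacaaagaa

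For Dnm1l, which lies on the minus strand of chromosome 16, Dnm1l-203 holds adjacent coding exons of 78 bases (chr16:16318764-16318841) and 33 bases (chr16:16318445-16318477) that the most abundant transcript, Dnm1l-201, lacks. For Mief1, on the plus strand of chromosome 15, Mief1-203 leaves out the first 86 bases (chr15:80248241-80248326) of a coding exon of Mief1-201. Since 86 is not a whole number of codons, the reading frame shifts there.
Dnm1l-203 with both exons: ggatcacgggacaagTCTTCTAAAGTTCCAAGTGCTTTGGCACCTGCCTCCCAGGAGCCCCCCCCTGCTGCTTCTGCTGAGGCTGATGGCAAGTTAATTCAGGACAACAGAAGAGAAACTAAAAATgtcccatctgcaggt
Dnm1l-201 at the same junction: ggatcacgggacaaggtcccatctgcaggt
Mief1-201 with its full exon: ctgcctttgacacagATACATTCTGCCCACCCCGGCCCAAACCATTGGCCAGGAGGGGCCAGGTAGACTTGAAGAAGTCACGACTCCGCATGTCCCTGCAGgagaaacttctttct
Mief1-203 at the same junction: ctgcctttgacacaggagaaacttctttct

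The libraries held 24698337 to 32452751 estimated counts, and each pair differed by far more than sampling noise. Chi-square per degree of freedom was 73.69 between the WT libraries, 50.38 to 107.8 between ATF4 BKO libraries and 57.39 to 143.7 across genotypes. These ranges overlapped, so pairs of the same genotype were not set apart from the others. The deleted gene, Atf4, had 32.6, 52.6 and 23.5 CPM (counts relative to library size, scaled by TMM) in ATF4 BKO replicates 1, 2 and 3 and 286 and 226 in WT replicates 1 and 2, a log2 fold change of -2.82 (SE 0.34) that DESeq2 called (adjusted p = 9.72e-12) and edgeR's quasi-likelihood test did not (adjusted p = 0.671). The labelled tissue was checked against 10 brown adipocyte markers, which were all expressed, and Ucp1 stood at 8039 to 10072 TPM (a level relative to transcript length and library size). ATF4 BKO replicate 1 had 4598 counts of the female-specific Xist against at most 7 in the other libraries and 34 counts over 4 Y-linked genes against at least 3284, which goes against the label male. WT replicate 2 was richest in skeletal muscle RNA. There, 14 muscle markers had a mean log2 CPM of 6.94, against 2.82 in WT replicate 1 and -0.73 to 1.36 in ATF4 BKO libraries. For 12 of the 14, every ATF4 BKO library was below both WT values, beside 10.6% of all genes tested. Summed CPM of the 14 ordered the libraries otherwise, with 371, 119 and 344 in ATF4 BKO replicates 1 to 3 and 138 and 2439 in WT replicates 1 and 2. Transcripts of the mitochondrial genome took 18.5% to 22% of the counts of ATF4 BKO libraries and 15.1% to 15.6% of those of WT libraries. What part the muscle RNA, the sex of replicate 1 or the mitochondrial transcripts had in the values below was not tested. Values with and without them are given for some results only, so a value left out does not mean no effect. In a bulk tissue sample, fewer cells of a type and less RNA per cell cannot be told apart.

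None of the 10 genes was called by edgeR's quasi-likelihood test over all genes or by DESeq2, and 0 had an unadjusted p under 0.05 with either tool. Over all genes tested, edgeR called 0.00608% (1 gene, higher), DESeq2 called 0.736% (0.608% lower and 0.128% higher), and 5.23% had an unadjusted p under 0.05 with edgeR. With 3 against 2 libraries, the exact permutation test of a single gene cannot go below p = 0.1, one-sided. The log2 fold changes of the 10 genes ran from -0.29 to 0.11, with 8 lower and 2 higher in ATF4 BKO libraries and a median of -0.13, against a median of 0.0077 over all genes. The median of the 10 was -0.039 without WT replicate 1 and -0.24 without WT replicate 2. Each 95% interval held 0 and reached between 0.295 and 0.392 to either side of its estimate. Changes within those bounds could not be told from 0 here, and the data do not show that the levels were alike. The bounds are not adjusted over all genes and are not the limit for a call. A much larger change, that of Atf4 at -2.82, was not called by edgeR's quasi-likelihood test.

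**Figure D1:**
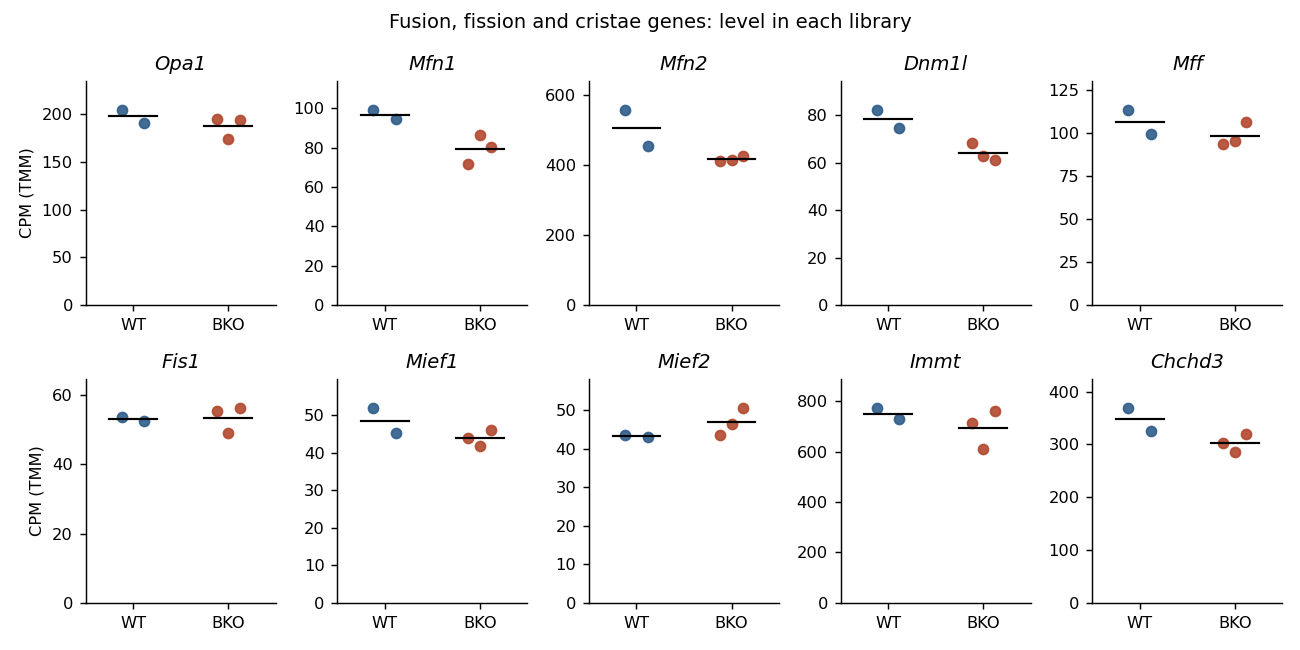
TMM-scaled CPM of the 10 genes (vertical axis, from 0) in the 2 WT (blue) and 3 ATF4 BKO (red) libraries, with a bar at each group mean. For Mfn1, Mfn2, Dnm1l and Chchd3 the red points lie below both blue points, for Mief2 they lie above, and for the other 5 genes the groups overlap.

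Among the fusion genes, with TMM scaling, both mitofusins stood lower in every ATF4 BKO library than in either WT library, and Opa1 did not. With library totals or with TPM, Opa1 lay below both WT values too, and the share of all genes that did so rose, as given further on. Opa1, the inner membrane fusion GTPase (ENSMUSG00000038084.16, chromosome 16 from 29579334 to 29654884), had 195, 174 and 194 CPM in ATF4 BKO replicates 1 to 3 and 204 and 191 in WT replicates 1 and 2. ATF4 BKO replicate 2 was the lowest, and the groups overlapped. The log2 fold change of Opa1 was -0.075 (SE 0.13, 95% interval -0.39 to 0.24), with an edgeR adjusted p of 0.964. It was -0.0052 without ATF4 BKO replicate 2, -0.014 without WT replicate 1 and -0.13 without WT replicate 2. A fold of Opa1 below 0.764 or above 1.18 lies outside that interval.

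Mfn1, the outer membrane tether encoded on chromosome 3 (ENSMUSG00000027668.13, from 32529465 to 32579239), had 71.4, 86.5 and 80.4 CPM in ATF4 BKO libraries and 98.9 and 94.5 in WT libraries. The WT libraries were close to each other and above all 3 others. Its log2 fold change was -0.28 (SE 0.13, 95% interval -0.60 to 0.035), and edgeR gave an adjusted p of 0.911. Without ATF4 BKO replicate 1, the lowest library, it was -0.21. For Mfn2, the other mitofusin (ENSMUSG00000029020.13, chromosome 4 from 147873599 to 147904704), the ATF4 BKO libraries held 413, 416 and 426 CPM and the WT libraries 557 and 454. The ATF4 BKO values were within a narrow band, and WT replicate 1 alone was far above it. The log2 fold change of Mfn2 of -0.27 (SE 0.15, edgeR adjusted p = 0.912) therefore rested on that library: it was -0.10 without WT replicate 1 and -0.43 without WT replicate 2. Sample names carry a prefix, S1 or S2, whose meaning is not given. S1 had WT replicate 1 as its only WT library, beside all ATF4 BKO libraries but replicate 3. For S2, WT replicate 2 was set against ATF4 BKO replicate 3, 1 mouse each. Within S1 and S2 the differences in log2 CPM were -0.43 and -0.09 for Mfn2 and -0.33 and -0.23 for Mfn1. Neither prefix gives a spread between WT mice, here or for the genes below.

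Among the fission genes, Dnm1l had the lowest fold change of the 10 genes in the main fit, close to Mfn1 at -0.28 and Mfn2 at -0.27. The estimates of its receptors did not share one direction. This rank depended on the scale, since on log2(TPM + 1) Mfn1 was the lowest, at -0.63 against -0.44 for Dnm1l. Dnm1l, the gene of the fission GTPase DRP1 (ENSMUSG00000022789.15, chromosome 16 from 16312230 to 16358959), had 68.5, 62.9 and 61.3 CPM in ATF4 BKO libraries and 82.2 and 74.6 in WT libraries. All 3 ATF4 BKO values were below both WT values. The log2 fold change was -0.29 (SE 0.12, 95% interval -0.58 to 0.0074), and edgeR gave an adjusted p of 0.911. The differences within prefixes S1 and S2 were -0.32 and -0.28, each resting on 1 WT library. Leaving out each library in turn gave -0.37 to -0.20, and the value without ATF4 BKO replicate 1 was -0.34. Of the 31-base words of the Dnm1l transcripts, 9.51% are shared with other genes, against 0% for Opa1, Fis1 and Chchd3, which makes the Dnm1l counts less certain than theirs. Shared words were 5.86% for Immt, 2.71% for Mfn1, 2.57% for Mief1 and 1.69% for Mff, so the same limit applies to these genes. For Mief2 and Mfn2 they were 0.109% and 0.019%.

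Mff, an outer membrane receptor for DRP1 (ENSMUSG00000026150.14), had 93.4, 95 and 106 CPM in ATF4 BKO libraries and 113 and 99.4 in WT libraries. Here ATF4 BKO replicate 3 lay between the WT libraries, and the log2 fold change was -0.11 (SE 0.13, edgeR adjusted p = 0.942), with -0.0053 without WT replicate 1 and -0.22 without WT replicate 2. Fis1, a small tail-anchored protein of the outer membrane (ENSMUSG00000019054.13), had 55.3, 49 and 56.3 CPM against 53.8 and 52.6. The WT values of Fis1 fell inside the range of the ATF4 BKO values, and the log2 fold change was 0.0096 (SE 0.12, 95% interval -0.29 to 0.31, edgeR adjusted p = 0.994).

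Mief1 and Mief2 encode MID51 and MID49, related outer membrane proteins that bind DRP1. For Mief1 (ENSMUSG00000022412.14, chromosome 15 from 80234018 to 80253371), the ATF4 BKO libraries had 44, 41.8 and 46.1 CPM and the WT libraries 51.9 and 45.2. ATF4 BKO replicate 3 passed WT replicate 2, and the log2 fold change was -0.14 (SE 0.13, edgeR adjusted p = 0.936), with -0.025 without WT replicate 1 and -0.25 without WT replicate 2. Mief2 (ENSMUSG00000018599.5) was, with TMM scaling, the only one of the 10 that stood higher in every ATF4 BKO library, at 43.6, 46.3 and 50.5 CPM against 43.5 and 43.1. The lowest ATF4 BKO value exceeded the highest WT value by less than the WT values differed from each other. Its log2 fold change was 0.11 (SE 0.12, edgeR adjusted p = 0.942), 0.16 without ATF4 BKO replicate 1, and 0.046 and 0.23 within prefixes S1 and S2.

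Mief1 ends 1812 bases before Atf4 starts on the same strand, with 0 annotated genes between them. The deletion of its neighbour was thus not accompanied by a called change of Mief1, whose 95% interval ran from -0.45 to 0.17. On the other side of Atf4, Rps19bp1, the gene of a protein that binds RPS19, chosen after its values were seen, had 2.47, 4.2 and 1.92 CPM in ATF4 BKO libraries and 15.5 and 12.3 in WT libraries (log2 fold change -2.28, SE 0.36). Like Atf4, Rps19bp1 was called by DESeq2 (adjusted p = 1.11e-05) and not by edgeR (adjusted p = 0.671). Within the Mief1 transcript the annotation holds a second, short gene, AC140267.1 (chromosome 15 from 80235835 to 80236047). All of its 31-base words (100%) are shared with Mief1, so reads from it cannot be told from those of Mief1, and it was listed with 0 counts in all 5 libraries.

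Of the cristae genes, Immt overlapped between genotypes with TMM scaling and Chchd3 did not. With library totals or with TPM, Immt lay below both WT values too, and the share of all genes that did so rose. Immt, the gene of the MICOS organizer MIC60 (ENSMUSG00000052337.15, chromosome 6 from 71831331 to 71877388), had 715, 609 and 760 CPM in ATF4 BKO libraries and 773 and 728 in WT libraries. ATF4 BKO replicate 2 was the lowest and replicate 3 lay between the WT libraries, and the log2 fold change was -0.11 (SE 0.16, edgeR adjusted p = 0.953). Without ATF4 BKO replicate 2 it was -0.0093, without replicate 3 it was -0.18, and without WT replicates 1 and 2 in turn it was -0.053 and -0.17. Chchd3, the gene of its partner MIC19 (ENSMUSG00000053768.13, also on chromosome 6, from 32790976 to 33060260), had 302, 286 and 320 CPM against 369 and 326. Its log2 fold change was -0.20 (SE 0.14, 95% interval -0.54 to 0.14, edgeR adjusted p = 0.92). The gap between ATF4 BKO replicate 3 and WT replicate 2 was small, and within prefix S2 the difference was -0.027, against -0.33 within S1. Without WT replicate 1, the log2 fold change of Chchd3 was -0.094 and the groups overlapped. Without ATF4 BKO replicate 1, the fold changes of Chchd3 and Mfn2 were -0.20 and -0.26.

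With TMM scaling, 4 of the 10 genes lay below and 1 above both WT values in every ATF4 BKO library. Over all genes tested, 10.6% lay below and 8.95% above. With DESeq2's size factors the counts were again 4 and 1, against 10.5% and 9.15% of all genes. Other scalings gave other counts. With counts over library totals or with TPM, 9 of the 10 lay below and 0 above, while the share of all genes below rose to 19.4% and 24.9% and the share above dropped to 3.99% and 3.02%. The median of all genes then moved to -0.10 and -0.12, and that of the 10 genes to -0.24 and -0.31. When transcripts of the mitochondrial genome were taken out of TPM, 7 of the 10 lay below and 0 above, against 12.7% and 7.44% of all genes. When libraries were scaled to 18 nuclear genes of other mitochondrial functions, 8 lay below (all but Fis1 and Mief2) and 0 above, against 11.2% and 5.98% of all genes, and the median of the 10 genes was -0.16. Both of the last scalings were chosen after the data were seen. In a fit that also held the muscle marker level, as mean log2 CPM, the log2 fold changes ran from -0.54 for Mfn2 to 0.061 for Mief2. Their median was -0.34, and the smallest adjusted p was 0.518, for Mfn2 (edgeR). That marker level was itself lower in every ATF4 BKO library (-0.73 to 1.36) than in the WT libraries (2.82 and 6.94), so this fit cannot cleanly part it from genotype. Across the 16 alternative fits, 0 of the 10 genes were called, the smallest adjusted p being 0.46, for Dnm1l without WT replicate 2.

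**Figure D2:**
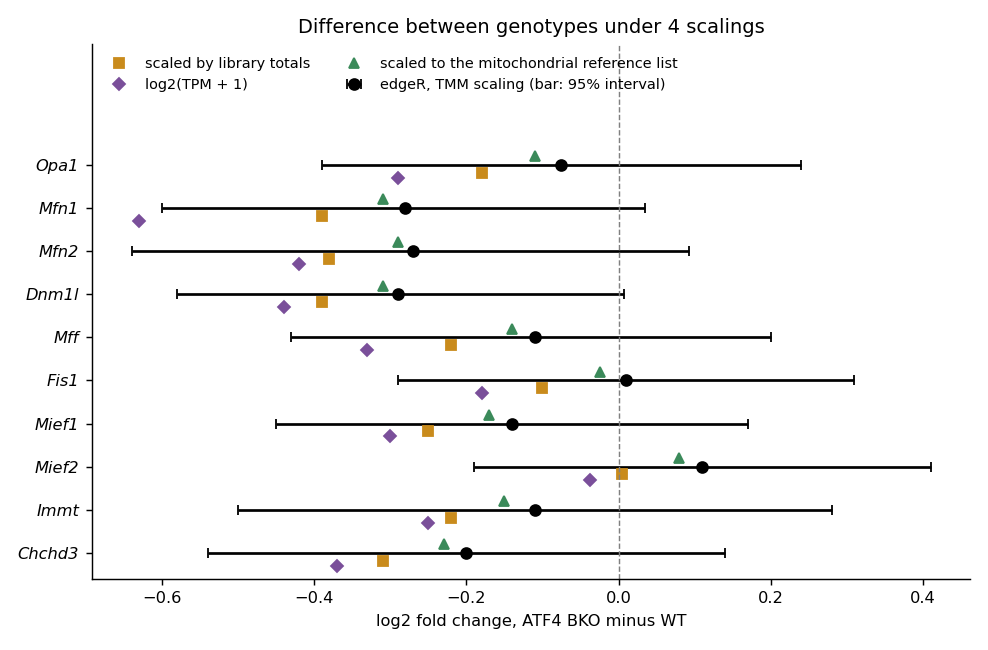
Log2 fold change, ATF4 BKO minus WT (horizontal axis), of the 10 genes from edgeR with TMM scaling (black, bar for the 95% interval), with library totals (squares), on log2(TPM + 1) (diamonds) and scaled to 18 mitochondrial reference genes (triangles). Every black bar crosses 0, and all estimates move to the left with library totals and TPM.

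Levels of different genes were compared on TPM. In WT libraries the order ran from Immt (422 ± 2.36 TPM, SD, n = 2) and Chchd3 (410 ± 17.7) through Mfn2 (174 ± 24.5), Mff (126 ± 2.02), Fis1 (112 ± 3.19), Mfn1 (71.3 ± 5.85), Opa1 (56 ± 2.67), Mief2 (28.4 ± 0.763) and Dnm1l (27.3 ± 0.918) to Mief1 (13.1 ± 1.01). The cristae genes were thus the most abundant and a fission receptor the least. The neighbours Immt and Chchd3, and Mief2 and Dnm1l, overlapped between the WT libraries, and the other neighbours did not. In ATF4 BKO libraries (n = 3), Immt had 356 ± 26.5 TPM (SD), Mfn2 129 ± 10.5, Opa1 45.7 ± 2.47, Dnm1l 19.9 ± 1.12 and Mief1 10.5 ± 0.326. Mief2, at 27.7 ± 2.87, stood above Dnm1l, as it did in the WT means.

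The order depended on which transcripts were counted. With protein-coding transcripts alone, the WT mean of Mfn1 was 39 TPM in place of 71.3, below Opa1 at 55.6, because Mfn1-210, an annotated intron-retaining transcript of 246 bases with 17 to 37 counts per library, took 35.2% to 39.4% of the TPM of Mfn1. Chchd3 moved from 410 to 274 TPM, and Mief2, at 21.7, went below Dnm1l, at 25.3. Within a library, ratios of 2 genes are free of library scaling, and 5 such ratios were computed with the values known. Dnm1l counts over Fis1 counts were 1.24, 1.28 and 1.09 in ATF4 BKO libraries and 1.53 and 1.42 in WT libraries, lower in 3 of 3. This pair joined the gene with the lowest log2 fold change (-0.29) to one at 0.0096, so the ratio is not a separate result. The share of all gene pairs whose ratio separates the genotypes was not computed. The ratio of Mief2 to Mief1 was 2.39, 2.7 and 2.84 on TPM against 2.01 and 2.33, but the groups overlapped with coding transcripts alone. The ratios of Mfn1 to Mfn2, Immt to Chchd3 and Opa1 to Mfn2 overlapped.

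**Figure D3:**
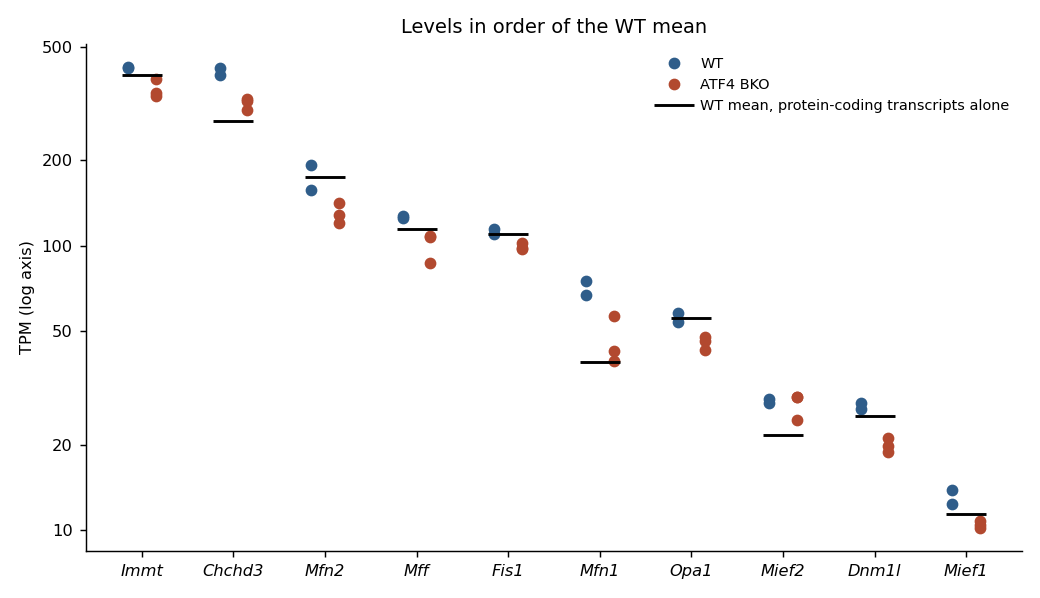
TPM (vertical log axis) of the 10 genes in each WT (blue) and ATF4 BKO (red) library, in the order of the WT mean, with a bar at the WT mean over protein-coding transcripts alone. Immt and Chchd3 lie at 300 TPM or more and Mief1 at 13.9 or less, and the bar falls well below the points for Mfn1, Chchd3 and Mief2.

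Transcript shares were read as Kallisto estimated them. Of 58 transcripts of the 10 genes with a mean of at least 10 counts, 15.5% had a share of the gene's TPM below both WT values in every ATF4 BKO library and 17.2% a share above them. Over the 35023 such transcripts of all genes tested, those percentages were 10.3% and 11%. Shares within a gene sum to a fixed total, so one transcript's gain is another's loss, and no test was made.

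The 3 full-length Opa1 transcripts made up most of its RNA, and Opa1-206, with neither of the exons shown above, held 57.2%, 46.4% and 52.4% of Opa1 TPM in ATF4 BKO libraries and 50.9% and 54.3% in WT libraries. Opa1-201, with the 54-base exon, held 22.6%, 29% and 29.6% against 23.6% and 29%. Neither share separated the genotypes. Opa1-207, with the 111-base exon, held 18.3%, 17.4% and 13.7% in ATF4 BKO libraries and 12.7% and 9.49% in WT libraries, higher in all 3. Set against the 3 full-length transcripts alone, its shares were 18.6%, 18.7% and 14.3% against 14.6% and 10.2%, and the genotypes overlapped. Opa1-201 and Opa1-207 hold 0 words of 31 bases that no other Opa1 transcript has, so Kallisto separated them only by which combinations of words a read matched.

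For Dnm1l, Dnm1l-201 held 67.2%, 61% and 58.6% of TPM in ATF4 BKO libraries and 71.5% and 70% in WT libraries. Dnm1l-203, which carries the 78- and 33-base exons, held 22.2%, 20.4% and 18.1% against 14.5% and 15.8%. An intron-retaining transcript, Dnm1l-206, held 8.19%, 12% and 19.9% against 7.16% and 7.62%, with 666 words of its own. The share of Dnm1l-201 was thus lower, and the shares of Dnm1l-203 and Dnm1l-206 higher, in each ATF4 BKO library. Without scaling for depth, the estimated counts of Dnm1l-203 were 352, 377 and 350 against 390 and 413. Those of Dnm1l-201 were 1082, 1147 and 1152 against 1950 and 1864. On TPM, Dnm1l-203 had 4.37, 4.3 and 3.42 against 4.06 and 4.19, and Dnm1l-201 had 13.2, 12.9 and 11.1 against 20 and 18.6. Only 3 words are found in Dnm1l-201 alone, and 12.4% of its words occur in other genes. The split between these transcripts therefore depends on how Kallisto divided shared reads.

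The neighbour of Atf4, Mief1, also differed in its transcript shares. Mief1-203, the transcript with the late splice site, held 1.92%, 1.61% and 0% of Mief1 TPM in ATF4 BKO libraries and 12% and 7.77% in WT libraries. Its estimated counts were 18, 17 and 0 against 181 and 108, and only 27 words of 31 bases set it apart from other transcripts. Mief1-201 held 77.5%, 81.1% and 95.5% against 72.8% and 73.5%. Another coding transcript, Mief1-205, held 13.3%, 11% and 0% against 10.5% and 15.3%, and its groups overlapped. In ATF4 BKO replicate 3 both Mief1-203 and Mief1-205 were estimated at 0, and Mief1-201 was at its highest. Mief1-201 and Mief1-205 have 84 and 53 words of their own, so these shares depend on how Kallisto divided shared reads. Immt-214, an intron-retaining transcript of Immt, held 10.3%, 9.91% and 13.4% in ATF4 BKO libraries and 2.31% and 6.54% in WT libraries, and the coding transcripts Immt-205 and Immt-201 were correspondingly lower in each ATF4 BKO library. Immt-214 has 0 words of its own, and its share is an estimate from the balance of reads along the gene. For Chchd3, the processed transcript Chchd3-209 had 74, 36 and 23 counts in ATF4 BKO libraries and 0 in both WT libraries, at most 3.8% of the gene's TPM. Mfn2-204 held 70.4% to 74.9% of Mfn2 TPM in every library, Fis1-201 held 91.9% to 94.5% of Fis1, and Chchd3-201 held 65% to 66.8% of Chchd3.

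**Figure D4:**
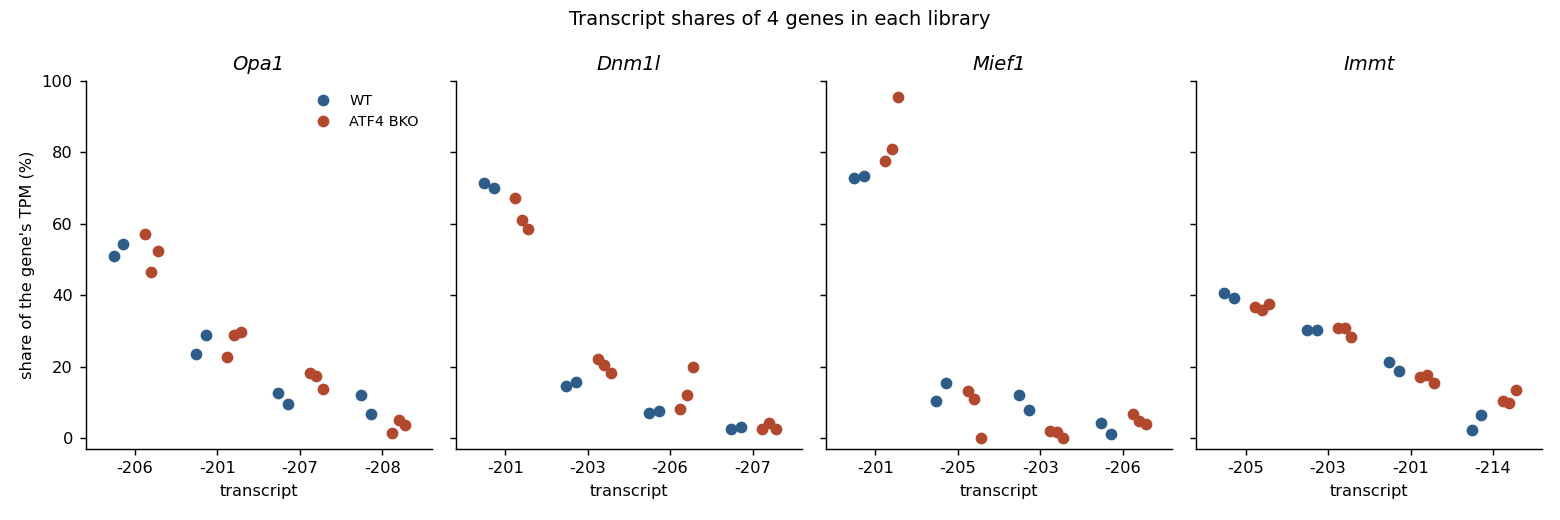
Share of the gene's TPM in percent (vertical axis) of the 4 most abundant transcripts of Opa1, Dnm1l, Mief1 and Immt, by WT (blue) and ATF4 BKO (red) library. Mief1-203 lies between 0% and 1.92% in ATF4 BKO libraries and at 7.77% and 12% in WT libraries, and Dnm1l-203, Dnm1l-206, Immt-214 and Opa1-207 lie higher in each ATF4 BKO library.

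Another 42 genes of fusion, fission, cristae and transport were read from the same fit, and 41 were tested (Gdap1 was not). Of these, 0 were called by edgeR or in any of the 16 alternatives, 30 were lower and 11 higher, and their median log2 fold change was -0.084. Every ATF4 BKO library was below both WT libraries for 9 of the 41 and above for 1, beside 10.6% and 8.95% of all genes. The medians were -0.062 for 12 genes of fusion and its proteases, -0.057 for 11 fission genes, -0.093 for 14 cristae genes and -0.25 for the 4 genes of transport along microtubules. All 4 transport genes were lower, but without WT replicate 1 Trak2, an adaptor to motor proteins, had 0.094 and Rhot2, a Miro GTPase, had 0.054. For the 18 mitochondrial reference genes the median was 0.031, and 8 of them were lower and 10 higher. Scaling moved these medians too: on log2(TPM + 1) they were -0.29 for the 41 genes and -0.22 for the reference genes.

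Of the genes outside the 10, those with the largest differences among non-overlapping genes at 10 CPM or more were Pgam5, Rhot1, Mtfr1 and Phb2. Pgam5, a mitochondrial phosphatase that acts on DRP1, had 23.6, 23.5 and 25 CPM in ATF4 BKO libraries and 31.4 and 28.9 in WT libraries. The log2 fold change of Pgam5 was -0.32 (SE 0.13, edgeR adjusted p = 0.911), and Pgam5 was the only one of the 41 with an unadjusted p under 0.05. Rhot1, the Miro GTPase that links mitochondria to motor proteins, had 65.2, 68 and 63.1 CPM against 83.6 and 74.9, a log2 fold change of -0.28 (SE 0.12). Mtfr1, a fission regulator, had 34.8, 33.6 and 37 CPM against 42.7 and 40.6 (log2 fold change -0.25, SE 0.12). Phb2, a prohibitin that stabilizes long OPA1, had 225, 232 and 228 CPM against 300 and 238 (log2 fold change -0.23, SE 0.15), and without WT replicate 1 its value was -0.045. Oma1 and Yme1l1 encode proteases that cut OPA1. Oma1 overlapped between genotypes, at 7.79 to 12.8 CPM and a log2 fold change of -0.04 (SE 0.25), and Yme1l1 had 62.4, 64 and 60.2 CPM in ATF4 BKO libraries against 69.3 and 67.5, a log2 fold change of -0.14 (SE 0.11) that was not called.

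**Figure D5:**
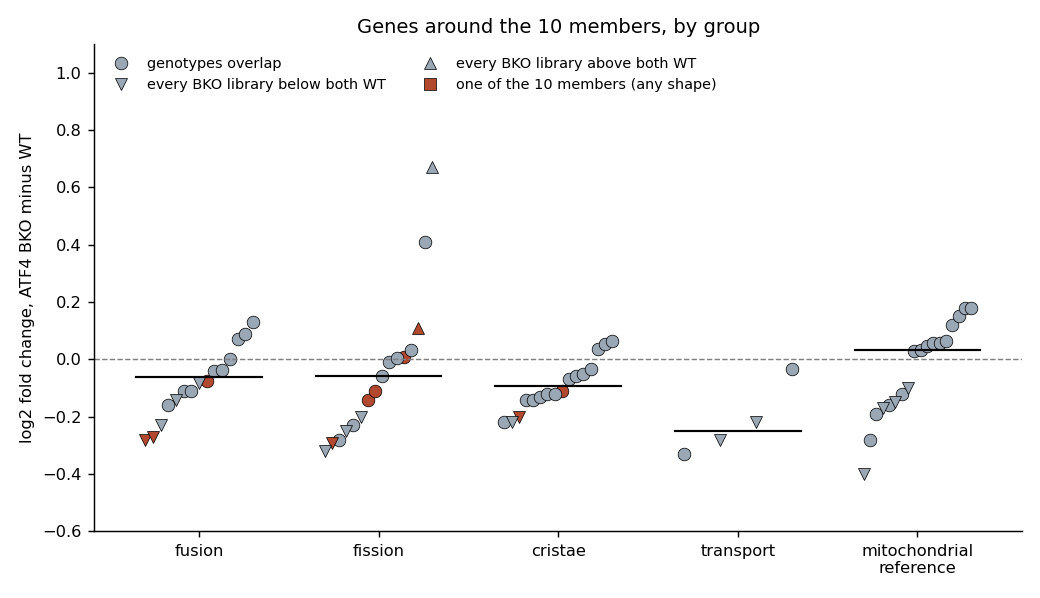
Log2 fold change, ATF4 BKO minus WT (vertical axis), of the tested genes of fusion, fission, cristae and transport and of 18 mitochondrial reference genes, with the 10 members in red, triangles for genes whose groups do not overlap and a bar at the median of the grey points of each column. The bars lie between -0.25 for transport and 0.031 for the reference genes.

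The genes whose pattern over the 5 libraries was most like that of Opa1 were Cox5a, a subunit of cytochrome c oxidase, Ndufs1, a subunit of complex I, and Paox, an oxidase of polyamines. Their root mean square differences from Opa1, in log2 CPM after centring each gene, were 0.016, 0.018 and 0.018. No other tested gene was closer. A looser likeness to Opa1 was common, since 1548 genes lay within 0.1, a wider limit, and the median over all genes was 0.253. Cox5a had 626, 566 and 639 CPM in ATF4 BKO libraries and 651 and 624 in WT libraries, with ATF4 BKO replicate 2 the lowest, as for Opa1.

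ATF4 with a C/EBP partner is known to bind a composite element, written here as TGATGNAA. It was searched on both strands from 250 bases before to 50 bases after the start of each gene in RefSeq promoters (GRCm38.p6). All 10 genes matched, with 15 promoters, and 0 of the 15 held the motif. Of all 32851 promoters 3.97% held it, among them the 1 promoter of Asns, the asparagine synthetase gene that ATF4 is known to activate. No match says only that these letters are not in these windows.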

How the data were processed

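BAT RNA of 3 ATF4 BKO and 2 WT mice was compared. From stranded mRNA libraries, the authors made and deposited estimated counts per transcript with Kallisto 0.45.0, without normalization between mice, beside TPM values that the authors' counter scaled for transcript length and library size. The transcript annotation is not given in the sources used here, and the aligner-based workflow of the study was not analysed here. Estimated counts depend on how shared reads are divided, which affects single transcripts more than gene sums.

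Of 141450 transcripts, 138191 matched GENCODE M21 (GRCm38) by identifier, in 52022 genes; the rest held 1.158% to 1.289% of counts. Counts were summed per gene and rounded. Genes that reached 10 counts in 2 or more libraries were tested with edgeR 4.0.16 (R 4.3.3): TMM scaling, quasi-likelihood test with genotype alone, Benjamini-Hochberg adjustment over 16450 genes, threshold 0.05, common dispersion 0.0758, with 3 residual degrees of freedom. Intervals are 95% and use the fitted standard error. Each library is 1 mouse, and the WT spread comes from a single pair. DESeq2 1.42.0, the study's tool, limma 3.58.1 on log2(TPM + 1) and log2(TPM + 0.1), other scalings, no count filter, leaving out each library, blocks for replicate number or name prefix, and a muscle marker covariate were alternatives, and 2 scalings were added after the data were seen. The fits were tested on simulated counts.

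The 10 genes and all lists were chosen with earlier results of these data known. Named genes were the 10, Atf4 and its neighbours, the 4 genes of the wider list with the largest differences among non-overlapping genes, and the 3 most like Opa1; Oma1, Yme1l1, Trak2, Rhot2 and Rps19bp1 were added after their values were seen. Shared reads were checked as 31-base words of transcripts (31-mers). Protein sequences were not used here.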

Additional observations from a re-analysis of the deposited data

How the results depend on the processing

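None of the 10 genes was called in any of the 16 alternatives, and 148 of 160 recomputed fold changes kept their direction. All of these are refits of the same libraries, so a kept direction is not separate support for it. The genes that changed direction in some fits were Fis1 and Mief2. Fis1 was -0.10 with library totals, -0.18 on both TPM scales, between -0.026 (without ATF4 BKO replicate 3) and 0.086 (without ATF4 BKO replicate 2) when a library was left out, with -0.014 when that was ATF4 BKO replicate 1 and -0.018 when it was WT replicate 2, -0.12 with the muscle covariate, and -0.016 and -0.024 with nuclear TPM and the mitochondrial reference scaling. Mief2 was -0.038 on log2(TPM + 1) and -0.039 on log2(TPM + 0.1). Over all genes, edgeR called 1 gene, DESeq2 121, no count filter 8, log2(TPM + 1) 0, log2(TPM + 0.1) 2, the name prefix block 0 and the muscle covariate 212, and leaving out a library gave 0 to 23, the 23 without WT replicate 1.

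The replicate numbers are shared by ATF4 BKO and WT replicates 1 and 2, but the correlations of their deviations were 0.0473 and 0.2. With 2 pairs, whether the numbers mark a pairing cannot be settled from these values, and the samples were treated as unpaired. With the replicate number as a block, 0 genes were called, and Fis1 was -0.031.

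The median of the 10 genes was -0.24 with library totals, -0.31 and -0.33 on the TPM scales and -0.34 with the muscle covariate, and -0.24 (without WT replicate 2) to -0.039 (without WT replicate 1) when a library was left out. For the wider list the same settings gave -0.19, -0.29, -0.29 and -0.31, and -0.18 to -0.027. The mitochondrial reference median was -0.22 on both TPM scales, -0.27 with the covariate, and -0.077 to 0.11 without a library. Members below both WT values numbered 9 with library totals and on either TPM scale, 7 with nuclear TPM, 8 with the reference scaling and 3 to 8 without a library: 8 without WT replicate 2 (30.7% of all genes), 7 without ATF4 BKO replicate 3 (15%), 4 without ATF4 BKO replicate 1 (16.4%), and 3 without ATF4 BKO replicate 2 (19.9%) or WT replicate 1 (18.5%). Those above numbered 0 with each of these scalings and with no count filter, and 1 to 2 without a library (2 without ATF4 BKO replicate 2, against 19.6% of all genes, and 1 in the others, against 14.4% to 27.1%). The cause of these shifts was not tested.

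Shares of estimated counts in place of TPM were 70.7% for Opa1-206, 61.0% for Mfn1-202, 81.6% for Mfn2-204, 69.3% for Dnm1l-201, 30.6% for Mff-202, 93.4% for Mief2-201 and 84.9% for Chchd3-201. With protein-coding transcripts alone, WT levels were 39.0 TPM for Mfn1, 25.3 for Dnm1l, 114 for Mff, 11.4 for Mief1, 21.7 for Mief2, 397 for Immt and 274 for Chchd3. At this depth and number of mice, the 95% intervals of the 10 fold changes reached 0.295 to 0.392 (log2) to either side. Smaller differences could not be told from 0. A call needed more than that, since edgeR's quasi-likelihood test did not call Atf4 at -2.82 (adjusted p = 0.671).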

Other observations

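The 18 nuclear genes of other mitochondrial functions did not move as one group. Hspd1, the gene of the matrix chaperone HSP60, had 818, 602 and 709 CPM in ATF4 BKO libraries and 998 and 873 in WT libraries, a log2 fold change of -0.40 (SE 0.18, edgeR adjusted p = 0.911), and every ATF4 BKO library was below both WT libraries. Cs, the gene of citrate synthase, Tfam, which packages the mitochondrial genome, and Ndufs1 also stood lower in each ATF4 BKO library, with log2 fold changes of -0.17, -0.15 and -0.10. The closest ATF4 BKO and WT values were 2250 and 2297 CPM for Cs, 47 and 48.1 for Tfam and 604 and 607 for Ndufs1. In all, 4 of the 18 lay below and 0 above, beside 10.6% and 8.95% of all genes tested. Of the 18, 8 were lower and 10 higher, with a median of 0.031. Sdha, a subunit of complex II, had 2085, 1762 and 2155 CPM against 1771 and 1761, a log2 fold change of 0.18 (SE 0.17). None of the 18 was called by edgeR. These genes were named after their values were seen.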
